A study of Mus musculus with 9 samples.

Results

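The mouse alpha-globin cluster was followed through its 3 alpha-like genes, Hba-a1, Hba-a2 and Hba-x, which are 3 of the 27999 rows of a deposited table of gene counts. They were chosen by symbol. RNA had been sequenced from G1E, an established line of mouse red cell progenitors without working Gata1, the transcription factor that drives red cell maturation. The cells grew with stem cell factor and erythropoietin and were infected by centrifugation with virus carrying the HMD vector, made in 293T cells. The vector was empty in 1 group, carried wildtype GATA1 in the second and carried mutant GATA1 in the third, with 3 libraries each. The loss of endogenous Gata1 is common to all groups. The mutated residue, the interval from infection to harvest and any sorting of infected cells are not stated in the labels.

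Haemoglobin is built from pairs of alpha-like and beta-like chains, each holding a heme group. In the mouse, Hba-a1 and Hba-a2 encode the adult alpha chain, and Hba-x encodes zeta, the alpha-like chain of primitive erythroid cells of the embryo. The genes lie downstream of a set of enhancers, several of them inside introns of the neighbouring gene Nprl3, and GATA1 is known to act at these elements during red cell maturation. Alpha chains without a beta partner are unstable and toxic, and erythroid cells hold chaperones and degradation factors for them.

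On the GRCm38 build with GENCODE M21, all 3 genes are on the plus strand of chromosome 11. Hba-x spans 32276400 to 32278116, Hba-a1 spans 32283511 to 32284465 and Hba-a2 spans 32296489 to 32297298. The cluster is 20.9 kb from the start of Hba-x to the end of Hba-a2, each gene has 3 exons, and each coding sequence is 426 bases. A theta-like globin gene, Hbq1b, lies between the adult copies, whose starts are 13.0 kb apart.

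The adult copies are close to identical as transcripts, and this limits what a count per copy means. Over the 538 bases that their GENCODE transcripts share, 537 are the same. The exception is C381T, counted from the A of the start codon with the Hba-a1 base first, at the third position of codon 127. The stretches around it are shown because they are where a read can tell the coding sequences apart, with the differing base in capitals.
Hba-a1: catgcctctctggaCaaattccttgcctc
Hba-a2: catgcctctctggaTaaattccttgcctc
Other than this base, the models differ in their ends, with 161 extra bases at the 5′ end of the Hba-a1 model and 16 at the 3′ end of the Hba-a2 model. Of the 505 windows of 50 bases along the Hba-a2 transcript, 66 do not occur in Hba-a1, and 50 of these lie over the differing base. Of the 650 such windows along Hba-a1, 211 do not occur in Hba-a2. How reads that match both copies were counted is not given in the sources used here. The sum of the copies is therefore the primary measure of adult alpha-globin RNA, and the values per copy are uncertain. Were such reads left out, the sum, its rank and its ratio to beta-like globins would all be understated, which was not tested. Zeta is not affected in the same way, since its coding sequence matches that of Hba-a1 at 263 of 426 aligned positions (61.7%).

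The sequences before the start sites also tie the adult copies together. The 250 bases before the RefSeq start of Hba-a1 and of Hba-a2 align with a shift of 3 bases, and all 247 aligned bases are identical. The Hba-a2 promoter (GRCm38.p6, chr11:32296242-32296491, plus strand) and the Hba-x promoter (chr11:32276350-32276599, plus strand) are given from RefSeq, because these genes rose together while their start regions differ. Capitals mark matches, on either strand, to the GATA motif written AGATAA, its form ending in G (AGATAG), its form starting with T (TGATAA) and the form with both changes (TGATAG), and to the CCAAT box, the CACCC element and the TATAA box.
Hba-a2: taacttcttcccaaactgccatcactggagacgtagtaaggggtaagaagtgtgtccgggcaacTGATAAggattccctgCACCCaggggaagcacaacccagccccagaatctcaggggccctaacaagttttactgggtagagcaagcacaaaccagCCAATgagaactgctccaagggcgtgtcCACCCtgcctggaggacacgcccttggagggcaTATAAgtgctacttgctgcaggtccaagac
Hba-x: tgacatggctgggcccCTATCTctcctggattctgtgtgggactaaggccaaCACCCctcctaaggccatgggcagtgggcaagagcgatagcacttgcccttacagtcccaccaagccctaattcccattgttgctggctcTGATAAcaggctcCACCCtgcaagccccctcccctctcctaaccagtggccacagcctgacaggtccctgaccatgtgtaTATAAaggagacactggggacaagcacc
The Hba-a2 window holds TGATAA at -186, CACCC at -170 and -63, CCAAT at -91 and TATAA at -30 relative to the start. The Hba-x window holds TGATAA at -108 and, on the minus strand, AGATAG at -234, with CACCC at -198 and -95, TATAA at -28 and no CCAAT. No matches overlapped. Among 32851 mouse promoter windows of the same length, 26.5% held a GATA motif, 33.8% CCAAT, 52.0% CACCC and 22.8% TATAA. A match describes the letters only, and the GENCODE models of Hba-x and Hba-a1 begin further upstream than the RefSeq start used here.

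Library totals ranged from 11364358 to 17289307 counts, and levels are given in CPM, which divides a count by the size of its library. Human GATA1, the vector's insert, was at 598 to 706 CPM with mutant GATA1 and at 715 to 921 with wildtype GATA1, and the empty vector libraries held 2 counts in all. The transgene was therefore lower in every mutant library than in every wildtype library, and its part in the differences below was not tested. Among erythroid markers, Epor, the erythropoietin receptor gene, was at 142.2 to 173.1 CPM with empty vector, 163.5 to 192.1 with mutant GATA1 and 268.7 to 348.4 with wildtype GATA1. Tfrc, the transferrin receptor gene, was at 778 to 1308.8, 847.9 to 1111.3 and 1618.8 to 2285.6 CPM in the same order. Kit, the receptor gene for stem cell factor, went the other way, with means of 660.6 ± 66.2, 601.9 ± 43.4 and 247.9 ± 11.7 CPM (SD, n = 3 each), and was called lower with wildtype GATA1. Markers of mast cells were at 29.6 to 34.2, 11.1 to 14.4 and 3.95 to 4.8 CPM over 4 genes in the same order, with Mcpt8 at 0 throughout. Nearly all of this was Cpa3 (means 31.4, 11.7 and 3.87 CPM), while Hdc (0.73, 0.967 and 0.587 CPM) was not called in any comparison. Those of megakaryocytes were at 46.8 to 51.8, 32.8 to 37.8 and 22.9 to 29.3 CPM over 4 genes, with Gp1bb at 0 throughout and Gp9 not called in any comparison. The part of either cell type in the results was not tested. Of the genes that define other cells, Elane, Itgam, Ly6g, Cd3e, Cd4, Ms4a1, Col1a1, Col1a2, Dcn, Alb and Ttr had no count in any library. Csf1r, Cd3g, Cd79a and Apoa1 had 0 to 13 counts per library. Mpo, a granulocyte gene, had 1, 2 and 5 counts in the empty vector replicates, 20, 15 and 12 in the mutant replicates and 4, 0 and 1 in the wildtype replicates. It was called higher in mutant than in wildtype (edgeR adjusted p = 0.0114), but it passed the filter on low counts through its mutant libraries alone. Its part in the results was not tested. In bulk RNA, a larger share of maturing cells cannot be told apart from more globin RNA in each cell.

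Adult alpha-globin RNA rose steeply with wildtype GATA1 and modestly with mutant GATA1. The summed adult copies, in CPM scaled by edgeR's TMM factors, were at 156.6, 160.1 and 183.4 in empty vector replicates 1, 2 and 3. With mutant GATA1 they were at 423.2, 430.3 and 338.6 CPM. With wildtype GATA1 they were at 4205.7, 4024.9 and 3754.7 CPM. The 3 groups did not overlap. Taken by pair of groups, 15.3% of the 9978 genes tested lay wholly higher with wildtype GATA1 than with empty vector. The shares were 8.19% for wholly higher with mutant GATA1 than with empty vector, and 20.9% for wholly lower with mutant than with wildtype GATA1. The share of genes apart in all 3 groups was not counted.

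Group means of the adult sum were 166.7 ± 14.6 CPM with empty vector, 397.3 ± 51 with mutant GATA1 and 3995.1 ± 226.9 with wildtype GATA1 (SD, n = 3 each). Wildtype GATA1 thus gave 24-fold the empty vector level, a log2 fold change of 4.58 ± 0.14 (SE) with an adjusted p of 7.74e-10 by edgeR's quasi-likelihood test. Mutant GATA1 gave 2.38-fold the empty vector level, with a log2 fold change of 1.25 ± 0.13 and an edgeR adjusted p of 0.000404. Set against wildtype directly, the mutant group was at 9.95% of the wildtype level, a log2 difference of -3.33 ± 0.14 with an edgeR adjusted p of 1.11e-08. Adjustment followed Benjamini and Hochberg over every gene tested, and a gene was called at an adjusted p under 0.05. The comparisons of mutant and of wildtype GATA1 with empty vector share the same empty vector libraries.

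**Figure D1:**
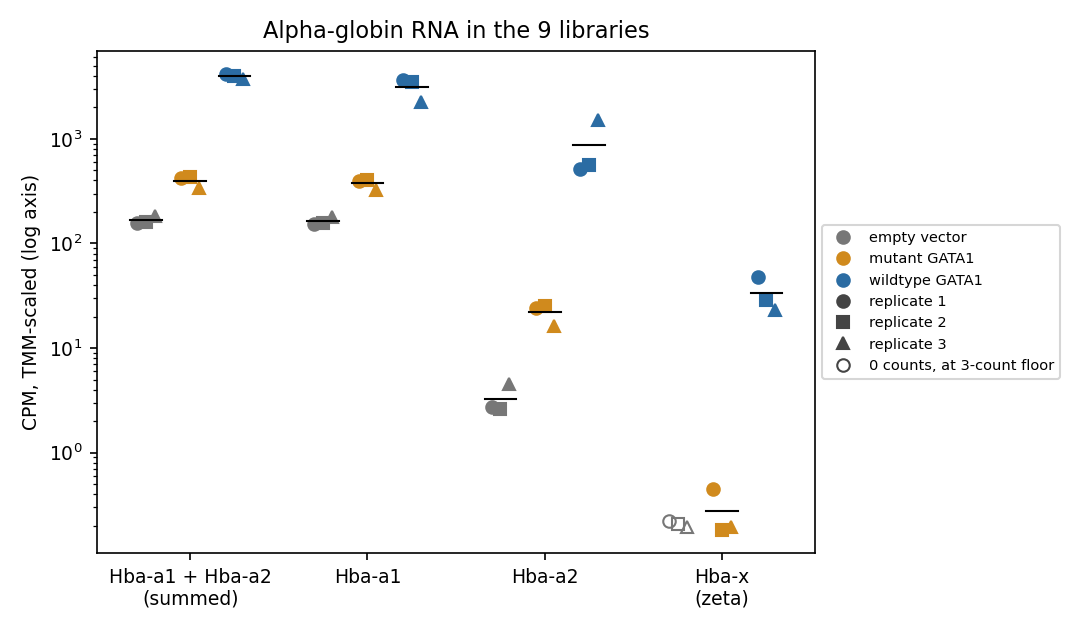
TMM-scaled CPM (log axis) of the summed adult copies, of each adult copy and of Hba-x in each of the 9 libraries, coloured by group, with the marker shape giving the replicate and horizontal lines the group means. The 3 wildtype libraries sit at 3754.7 to 4205.7 CPM for the sum, above the mutant libraries at 338.6 to 430.3 and the empty vector libraries at 156.6 to 183.4; open markers show libraries with 0 Hba-x counts, drawn at the level of 3 counts.

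The position of adult alpha-globin among all genes moved accordingly. By counts, the summed copies ranked 1209 to 1509 from the top of 27997 mouse rows in the empty vector libraries and 382 to 516 in the mutant libraries. In the wildtype libraries they ranked 10, 16 and 11, among the most abundant RNAs of the cell. Adult alpha-globin took 0.0156% to 0.0189% of an empty vector library, 0.0353% to 0.0439% of a mutant library and 0.366% to 0.401% of a wildtype library.

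All 3 members passed the filter on low counts, and all 3 were called higher with wildtype GATA1, where 11.4% of the 9978 genes tested were called higher. With mutant GATA1, Hba-a1 and Hba-a2 were called higher and Hba-x was not called, where 0.21% of genes tested were called higher. All 3 were called lower in mutant than in wildtype GATA1, where 12.7% of genes tested were called lower. Hba-x passed the filter through its wildtype libraries alone. Median log2 differences of the members were 8.03 for wildtype against empty vector and -5.31 for mutant against wildtype, beside -0.04 and -0.01 over all genes tested.

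Hba-a1 held most of the adult counts in every library. It was at 153.9, 157.5 and 178.9 CPM in empty vector replicates 1, 2 and 3, at 399.1, 405.1 and 322.1 in the mutant replicates, and at 3685.6, 3457.3 and 2236.8 in the wildtype replicates. Wildtype replicate 3 was the lowest of its group. Wildtype GATA1 gave 19.1-fold the empty vector level (log2 fold change 4.26 ± 0.20, edgeR adjusted p = 1.31e-08) and mutant GATA1 2.3-fold (1.20 ± 0.17, edgeR adjusted p = 0.0105). Mutant libraries held 12% of the wildtype level (log2 difference -3.06 ± 0.19, edgeR adjusted p = 1.9e-07).

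Hba-a2 started from a much lower count. It was at 2.71, 2.59 and 4.57 CPM in empty vector replicates 1, 2 and 3, at 24.1, 25.2 and 16.4 in the mutant replicates, and at 520.1, 567.6 and 1517.9 in the wildtype replicates. Here wildtype replicate 3 was the highest of all libraries, the opposite of its place for Hba-a1. Its mean rose 264.1-fold with wildtype GATA1 (log2 fold change 8.03 ± 0.48, edgeR adjusted p = 1.11e-07) and 6.66-fold with mutant GATA1 (2.72 ± 0.43, edgeR adjusted p = 0.0171). Mutant libraries held 2.52% of the wildtype level (log2 difference -5.31 ± 0.41, edgeR adjusted p = 1.53e-06). Wildtype replicate 3 carried part of the size of these differences: without it the log2 fold change was 7.35 for wildtype against empty vector and -4.63 for mutant against wildtype. The call of each copy with mutant GATA1 rested on single libraries. For Hba-a1 the edgeR adjusted p was 0.106 without empty vector replicate 1, 0.0901 without empty vector replicate 2, 0.052 without mutant replicate 1 and 0.0667 without mutant replicate 2. For Hba-a2 it was 0.182 without empty vector replicate 1, 0.133 without empty vector replicate 2 and 0.0648 without mutant replicate 2. The sum was called under every alternative run.

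The split of counts between the adult copies differed between the groups. Hba-a1 made up 98.3%, 98.4% and 97.5% of the adult counts in empty vector replicates 1, 2 and 3. It made up 94.3%, 94.1% and 95.1% in the mutant replicates and 87.6%, 85.9% and 59.6% in the wildtype replicates. The groups did not overlap, and wildtype replicate 3 stood apart from all other libraries, with an exact (Clopper-Pearson) 95% interval of 59.1% to 60.0% that covers counting error only.

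Means of the Hba-a1 share were 98.1% ± 0.475, 94.5% ± 0.538 and 77.7% ± 15.7 with empty vector, mutant and wildtype GATA1 (SD, n = 3 each). Between any pair of groups the exact two-sided permutation test gave p = 0.1, the smallest it can give with 3 libraries against 3. Across all 3 groups, a test added after seeing the data, the exact permutation p was 0.00357, the smallest of 1680 arrangements, and it ran from 0.0643 to 0.075 when any mutant or empty vector library was left out. In wildtype replicate 3 the sum of the copies, at 3754.7 CPM, was close to the 4205.7 and 4024.9 of the other wildtype libraries. That library also had the lowest wildtype count of Hbb-bs, the more abundant adult beta-globin gene here (126227, against 219766 and 222237). It also had the highest human GATA1 level. The part of read assignment in the split was not tested.

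**Figure D2:**
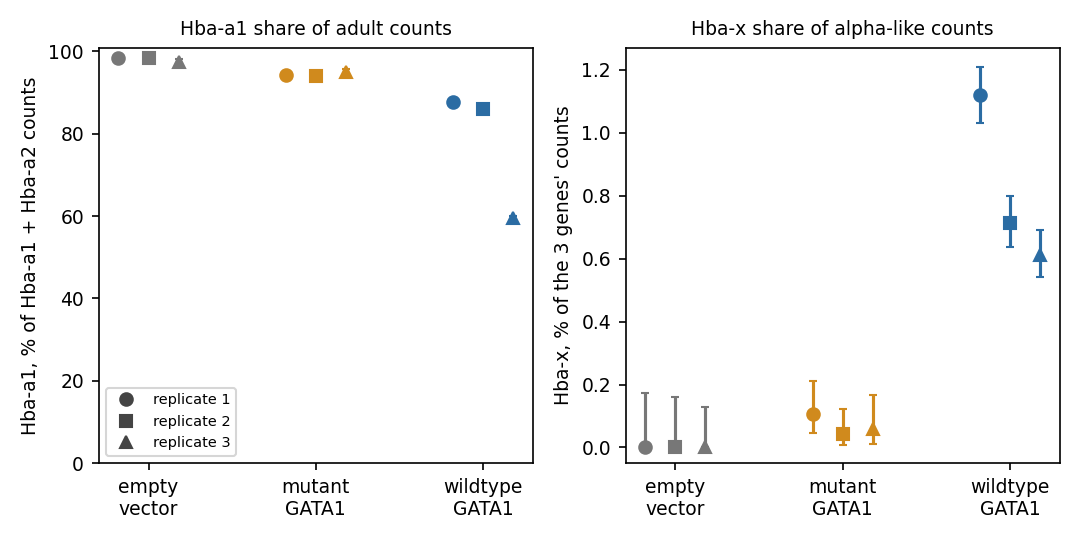
Left, Hba-a1 as a percentage of the adult alpha-globin counts, and right, Hba-x as a percentage of the counts of the 3 alpha-like genes, per library, with exact 95% binomial intervals as bars (within the marker in most of the left panel). The Hba-a1 share is at 59.6% in wildtype replicate 3 and at 85.9% or more elsewhere; the Hba-x share is at 0.613% to 1.12% in the wildtype libraries and at 0.107% or less in all others.

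Embryonic zeta was the member closest to silent without GATA1. Hba-x had 0 counts in all 3 empty vector libraries, which allows up to 0.193 to 0.22 CPM per library if 3 counts are taken as the limit. In mutant replicates 1, 2 and 3 it had 8, 3 and 3 counts (0.452, 0.181 and 0.195 CPM). In wildtype replicates 1, 2 and 3 it had 596, 301 and 264 counts (47.7, 29 and 23.2 CPM). The wildtype libraries lay far above this limit and mutant replicate 1 somewhat above it, while mutant replicates 2 and 3 were at or below it.

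Wildtype GATA1 raised Hba-x at least 491-fold over empty vector, taking 3 counts over the whole empty vector group as the floor, and the edgeR adjusted p was 4.44e-07. Mutant GATA1 gave 14 counts in all, a pooled 0.282 CPM with an exact 95% counting interval of 0.154 to 0.473, beside that floor of 0.069 CPM, and this was not called (edgeR adjusted p = 0.304). That result depended on the setting: the adjusted p was 0.0471 by DESeq2 and 0.00391 by edgeR without the low-count filter. The mutant mean of 0.276 ± 0.153 CPM was 0.829% of the wildtype mean of 33.3 ± 12.8 CPM (SD, n = 3 each), with a log2 difference of -6.85 ± 0.41 and an edgeR adjusted p of 8.89e-07.

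Zeta stayed a small part of the alpha-like RNA wherever it was detected. Its share of the counts of the 3 genes was 1.12%, 0.715% and 0.613% in wildtype replicates 1, 2 and 3, and 0.107%, 0.042% and 0.0575% in the mutant replicates. Every wildtype share lay above every mutant share. The group means were 0.816% ± 0.268 and 0.0687% ± 0.0338 (SD, n = 3 each), a difference of -0.748 percentage points for mutant minus wildtype with an exact two-sided permutation p of 0.1, the smallest possible. In a single empty vector library, 0 counts allow a share of up to 0.105% to 0.14%. A share like the mutant mean was therefore not detectable in 1 such library, and the empty vector libraries were not pooled for this limit.

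Set per kilobase of coding sequence, the order of the members was the same in each group. In wildtype libraries the means were 7339.4 ± 1828.6 CPM per kb for Hba-a1, 2038.8 ± 1321.3 for Hba-a2 and 78.2 ± 30.1 for Hba-x (SD, n = 3 each). In mutant libraries they were 881.3 ± 108.7, 51.4 ± 11.3 and 0.648 ± 0.358 CPM per kb. In empty vector libraries Hba-a1 was at 383.6 ± 31.7 and Hba-a2 at 7.72 ± 2.61 CPM per kb. The order of Hba-a1 and Hba-a2 rests on the uncertain split between the copies.

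Summed beta-like globin RNA rose more than summed adult alpha-globin RNA, so the balance of the chains at the RNA level shifted. Most beta-like counts were Hbb-bs, whose mean rose 217.7-fold with wildtype and 9.3-fold with mutant GATA1. Hbb-bh1, at a far lower level, rose 415.7-fold and 13.3-fold. Hbb-bt rose 29.3-fold and 2.81-fold, close to the 24-fold and 2.38-fold of the adult alpha sum. All 5 beta-cluster genes in the table, Hbb-bs, Hbb-bt, Hbb-bh1, Hbb-bh2 and Hbb-y, were called higher with wildtype GATA1, where 11.4% of genes tested were called higher. Their median log2 fold change was 7.77, beside 8.03 for the 3 alpha-like members. Hbb-bh2 had 0 counts in all empty vector and mutant libraries and 19, 10 and 13 in the wildtype replicates, so it passed the filter on low counts through the group where it was high. With mutant GATA1 4 of the 5 were called higher, with a median of 3.22, where 0.21% of genes tested were called higher. The count fell to 2 without empty vector replicate 2, and Hbb-y (edgeR adjusted p = 0.0403) lost its call in 8 of 17 alternatives. All 5 were lower in mutant than in wildtype, where 12.7% of genes tested were called lower. Per kilobase of coding sequence, there were 1.2, 1.76 and 1.77 adult alpha counts for each beta-like count in empty vector replicates 1, 2 and 3. The same ratio was 0.541, 0.531 and 0.424 in the mutant replicates and 0.227, 0.18 and 0.318 in the wildtype replicates. By these counts alpha was in excess in all empty vector libraries and beta-like RNA in all libraries with a GATA1 construct. The groups did not overlap. Which chain was in excess is uncertain, since how reads matching more than 1 gene were counted is not given.

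On the log2 scale this ratio averaged 0.63 ± 0.32 with empty vector, -1.01 ± 0.20 with mutant and -2.09 ± 0.41 with wildtype GATA1 (SD, n = 3 each). The differences were -1.65 for mutant minus empty vector, -2.72 for wildtype minus empty vector and 1.08 for mutant minus wildtype, each with an exact two-sided permutation p of 0.1, the smallest possible. Across the 3 groups, again a test added after seeing the data, the exact permutation p was 0.00357, the smallest of 1680 arrangements. All alpha-like and beta-like globin genes together took 0.026% to 0.03% of an empty vector library, 0.121% to 0.129% of a mutant library and 1.6% to 2.47% of a wildtype library.

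**Figure D3:**
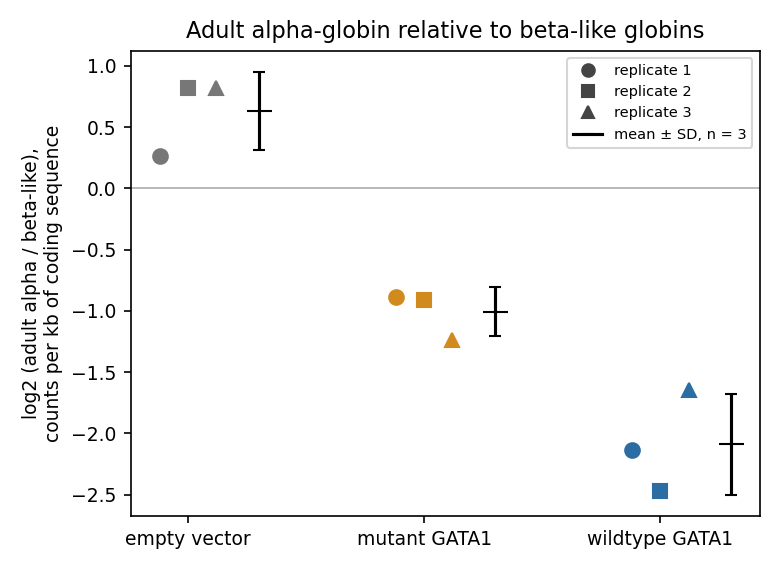
Log2 ratio of adult alpha-globin to beta-like globin counts per kilobase of coding sequence in each library, with group means and SD (n = 3). Values are above 0 in the 3 empty vector libraries (mean 0.63) and below 0 in the mutant (mean -1.01) and wildtype libraries (mean -2.09).

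The theta-like gene Hbq1b, between the adult copies, moved in the same direction as they did. Hbq1b was at 2.42, 2.79 and 2.64 CPM in empty vector replicates 1, 2 and 3, at 5.2, 5.54 and 5.71 in the mutant replicates and at 36.1, 40.9 and 24.4 in the wildtype replicates. The mean rose 12.9-fold with wildtype GATA1 (log2 fold change 3.68 ± 0.22, edgeR adjusted p = 1.01e-07). With mutant GATA1 the log2 difference of 1.06 ± 0.22 was not called (edgeR adjusted p = 0.0832), and mutant was lower than wildtype by a log2 difference of -2.62 ± 0.20 (edgeR adjusted p = 1.41e-06). Its second copy, Hbq1a, had 0 to 3 counts per library.

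Of 11 listed neighbours outside the 3 members, 7 were tested. With wildtype GATA1, Hbq1b, Rhbdf1, Snrnp25 and Mpg were called higher and Stk10, a kinase gene further along the chromosome, was called lower, where 11.9% of genes tested were called lower. The median log2 difference was 0.63, beside -0.04 over all genes. The count of 4 higher fell to 1, Hbq1b, without wildtype replicate 2 or without empty vector replicate 2, and to 2 without empty vector replicate 1. Nprl3, whose introns hold the alpha-globin enhancers, had a log2 difference of 0.41 and was not called (edgeR adjusted p = 0.0758). With mutant GATA1 none of the 7 was called, with a median log2 difference of 0.31 beside 0 over all genes, while 2 were called higher by edgeR without the low-count filter, by DESeq2 and without empty vector replicate 3. When wildtype replicate 3 was left out, 1 was called higher. Over all genes tested, 0.0601% were called lower with mutant GATA1.

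**Figure D4:**
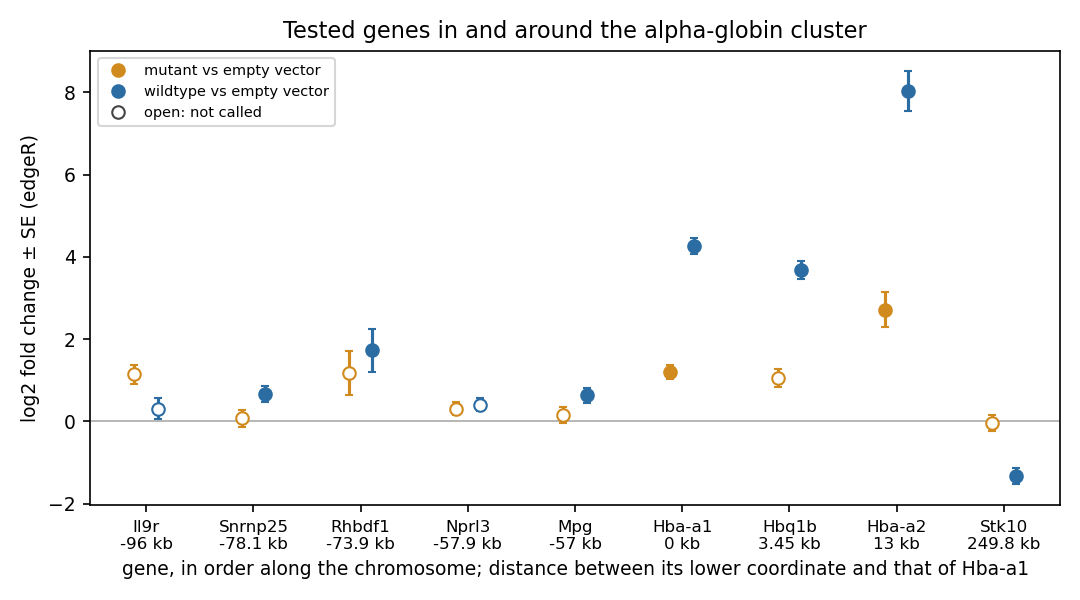
Log2 fold changes over empty vector (± SE, edgeR) of tested genes in and around the alpha-globin cluster, in chromosomal order with the distance from Hba-a1, for mutant and wildtype GATA1; filled markers were called at an adjusted p under 0.05. Hba-a2 (8.03), Hba-a1 (4.26) and Hbq1b (3.68) stand above the other genes with wildtype GATA1; Hba-x is left out because its empty vector libraries are at 0.

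Of 22 regulators of globin genes listed and tested, 9 were called higher and 2 lower with wildtype GATA1, beside 11.4% and 11.9% of all genes tested. Their median log2 difference was 0.22, beside -0.04 over all genes. The count of 9 higher ran from 6 to 10 over the alternatives, with 6 without TMM factors, with the replicate block or without wildtype replicate 1. Klf1, an erythroid activator that binds CACCC elements, rose by a log2 fold change of 1.24 ± 0.12, and Mafk, a partner of Nfe2, by 0.99 ± 0.11. Gata2, the GATA factor of earlier progenitors, had a log2 fold change of -1.67 ± 0.14, and Myb, a progenitor transcription factor, of -1.14 ± 0.14. With mutant GATA1 none of the 22 was called by edgeR (2 higher and 1 lower without empty vector replicate 3, and 1 higher by DESeq2), with Klf1 at 0.39 ± 0.12 (edgeR adjusted p = 0.304) and Gata2 at -0.20 ± 0.14 (edgeR adjusted p = 0.526). Compared directly, 8 were lower and 3 higher in mutant than in wildtype (6 higher when the 6 mutant and wildtype libraries were fitted with a replicate block), where 13.2% of genes tested were called higher, with Klf1 at -0.86 ± 0.12 and Gata2 at 1.48 ± 0.14. The count of 8 lower fell to 6 with mutant replicates 1 and 2 summed, and without mutant replicate 1 or mutant replicate 2.

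Genes that handle unpaired alpha chains, or respond to a shortage of heme, were tested for 10 of 13 listed genes, and Ahsp, the alpha-globin chaperone, was not analysed here. Their median log2 difference with wildtype GATA1 was 0.15, beside -0.04 over all genes. Of the 10, 4 were called higher and none lower, beside 11.4% and 11.9% of all genes tested. They were Ddit3 (log2 fold change 2.34 ± 0.16), Eif2ak1, the heme-regulated translation inhibitor (1.39 ± 0.13), Ube2o, a ubiquitin ligase of unassembled alpha-globin (1.15 ± 0.15), and Atf4 (0.41 ± 0.11), which was not called without wildtype replicate 1, without wildtype replicate 2 or without empty vector replicate 2. With mutant GATA1 none was called, by edgeR or by DESeq2, where edgeR called 0.21% of genes tested higher. In mutant against wildtype 4 were lower and none higher, beside 12.7% and 13.2% of all genes tested. With a replicate block in the 6 mutant and wildtype libraries, 4 were lower and 3 higher.

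Most genes of heme synthesis rose with wildtype GATA1. Of 15 genes, 12 were called higher, where 11.4% of genes tested were called higher. Their median log2 fold change was 1.61, beside -0.04 over all genes. The smallest p-values were those of Alas2, which starts heme synthesis in red cells (6.46 ± 0.21), Slc25a37, the mitochondrial iron importer (3.63 ± 0.15), and Abcb10, a mitochondrial transporter (2.12 ± 0.11). With mutant GATA1 only Alas2 was called (2.01 ± 0.19, edgeR adjusted p = 0.000271), while 4 were called without the low-count filter, 3 by DESeq2, 3 when empty vector replicate 3 was left out, and 2 when wildtype replicate 3 was left out. In mutant against wildtype, 13 of the 15 were lower, where 12.7% of genes tested were called lower.

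Among 9314 genes, those whose pattern over the 9 libraries was most like the adult alpha-globin sum were ranked by the root mean square difference of centred log2 CPM. They were Slc6a9 (0.20), Prg2 (0.28), Hbb-bt (0.31), Tmcc2 (0.33), Dnah2 (0.35), Tmem184a (0.41), Aqp3 (0.44) and Dusp1 (0.45). Slc6a9, a glycine transporter gene, was at 1.06 ± 0.172, 2.56 ± 0.745 and 25.8 ± 3.64 CPM with empty vector, mutant and wildtype GATA1 (SD, n = 3 each), and was 24.4-fold higher with wildtype and 2.42-fold higher with mutant GATA1. Prg2 had 0 counts in the empty vector libraries and 4, 2 and 2 in the mutant replicates, so its likeness rests largely on the prior count added before taking logs. Dnah2 had 3 to 5 counts in the empty vector libraries, and its mean rose 44.3-fold with wildtype GATA1. The Slc6a9 ratios were close to the 24-fold and 2.38-fold of the adult sum, at a far lower level. This closeness follows from picking the gene by its likeness in the same libraries. For Hba-x, the genes most alike were Dmtn (0.37), Slc38a5 (0.67), Tubb1 (0.71), Hbb-y (0.79), the embryonic epsilon-like beta chain, and Alas2 (0.87). Tubb1 had 0 or 1 count in every empty vector and mutant library. Hba-x itself had 0 counts in the empty vector libraries and 3 to 8 in the mutant libraries, so likeness to it rests largely on the prior count. Dmtn, ranked first, had log2 fold changes of 8.07 with wildtype and 1.71 with mutant GATA1, beside 11.88 and 5.04 for Hba-x. Likeness was described and not tested, and all values come from the same 9 libraries.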

How the data were processed

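RNA was measured in 9 libraries made with Smart-seq2, a full-length method primed on the poly(A) tail that keeps no strand, with Nextera-based indexing, per the labels' protocols. The authors deposited raw counts per gene. They aligned with STAR to GRCm38.p4 and hg19, per the submitters' processing notes. Which STAR version, counting tool and annotation were used, and what became of reads matching more than 1 gene, is not given in the sources used here. Human GATA1 was kept out of the fit.

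Counts were tested with edgeR 4.0.16 (limma 3.58.1, R 4.3.3), with TMM factors, filterByExpr by group and glmQLFit and glmQLFTest on all 9 libraries with 1 mean per group, leaving 6 residual degrees of freedom; 9978 genes were tested. SE was approximated by dividing the size of the log2 fold change by the root of the F-statistic. The adult sum replaced both rows in a second fit of 9977 rows. Likeness used log2 CPM with a prior count of 2. DESeq2 1.42.0 was an alternative. The fit was tested on simulated counts. Shares and ratios used exact permutation tests over libraries in scipy 1.17.1. A limit of 3 counts was used for zeros.

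Members, lists, markers and the rule for named genes were chosen with earlier results of these data known. Some of the markers are not reported here. The rule named the members, any gene of the neighbour, beta-like, regulator and alpha-handling lists, the 3 heme genes with the smallest p with wildtype GATA1, and the 8 and 5 genes most like the adult sum and Hba-x. The series describes biological replicates; the labels name no separate infections, so p-values describe the spread among these libraries.

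Same-numbered mutant and wildtype libraries deviated together from their group means (r = 0.17, 0.29 and 0.53 for replicates 1, 2 and 3), each above 0.1, so the numbers were taken to pair these groups. Replicates 1 and 2 were not told apart, since mutant 1 with wildtype 2 gave 0.24 and mutant 2 with wildtype 1 gave 0.22. With the same-numbered empty vector libraries the correlations ran from -0.44 to -0.20, and with differently numbered ones from -0.22 to 0.41. Mutant replicates 1 and 2 differed by a chi-square of 2.2 per gene, against 15 to 55.5 for other pairs of 1 group. This is above sampling noise (1 per gene), so they were kept apart and summed in an alternative. It does not show that they are independent samples, so SDs and p-values that use n = 3 for the mutant group may be too small.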

Additional observations from a re-analysis of the deposited data

How the results depend on the processing

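The adult alpha-globin sum kept its direction and its call in all 3 comparisons under every alternative run: other normalization factors, other low-count filters, DESeq2, the 6 compared libraries alone, the replicate block, mutant replicates 1 and 2 summed, and each library left out. Its log2 fold change ran from 4.49 to 4.66 for wildtype against empty vector, from 1.19 to 1.36 for mutant against empty vector (adjusted p up to 0.00775) and from -3.39 to -3.22 for mutant against wildtype. With the replicate block the mutant against wildtype value was -3.33 in the 9-library fit and -3.34 in the 6 paired libraries, and pairing changed no call of a member. It did move counts over all genes: mutant against empty vector gave 12 higher and 2 lower with the block, against 21 and 6 without it, and mutant against wildtype gave 1054 and 1001 with the block, against 1313 and 1267. In the 6 mutant and wildtype libraries alone, mutant against wildtype gave 2323 higher and 2417 lower with the block and 1437 and 1412 without it. The count for mutant against empty vector also depended on 1 library, at 227 higher and 610 lower without empty vector replicate 3. With mutant replicates 1 and 2 summed, mutant against empty vector gave 9 higher and 2 lower. Mutant against wildtype then gave 779 higher and 772 lower. Without TMM factors the median of all genes in wildtype against empty vector moved to -0.13. Hba-x in mutant against empty vector became called with no low-count filter (adjusted p = 0.00391) and with DESeq2 (0.0471), and ran from 0.114 to 0.899 with 1 library left out; the cause was not tested. Single copies in mutant against empty vector lost their call in 5 settings for Hba-a1 and 4 for Hba-a2. The permutation p of the Hba-a1 share across the 3 groups rose to 0.0643 with mutant replicates 1 and 2 summed and ran from 0.00357 to 0.075 with 1 library left out, and the cause was not tested. The difference in share between mutant and wildtype was 7.77 points without wildtype replicate 3, against 16.8. Depth limits Hba-x in the mutant and empty vector libraries, since a limit of 3 counts lies at 0.169 to 0.22 CPM in them.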
